A study of Mus musculus with 6 samples.

Results

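The 44 genes described here encode the non-cyclin machinery of mitosis: kinetochore, spindle checkpoint, condensin, chromosomal passenger, anaphase, spindle and cytokinesis proteins with their kinases and phosphatases. They were taken by name, with earlier results of these arrays known, and each was read by 1 transcript cluster that carried its symbol alone, so all 44 of 44 had a value among 30142 genes tested. Kinetochores are the protein plates on centromeric chromatin that hold chromosomes to spindle microtubules, the checkpoint delays anaphase while any kinetochore is unattached, and condensin folds the duplicated chromosomes into rods. In most tissues the transcripts of such genes are made mainly in cells that pass through G2 and mitosis and are low in cells that have left the cycle, which is why Ki-67 and its companions serve as proliferation markers in prostate cancer.

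RNA came from tumor cells of 3 degarelix-treated mice and 3 untreated mice, all male and all bearing MCRedAL allografts, with 1 Affymetrix MTA 1.0 array per tumor. Degarelix blocks the receptor for gonadotropin-releasing hormone and so withdraws testicular androgen. It was injected under the skin once tumors measured about 500 mm2 (the unit the labels give), and the untreated group received none. The degarelix titles carry the tag 7dPC, which the labels leave unexplained, so no sampling time is given here. MCRedAL is a mouse prostate cancer line marked with mCherry, so both groups stand for 1 line, and as background its parent Myc-CaP arose in a mouse with a human MYC transgene under a modified probasin promoter, which itself responds to androgen. Cells were sorted for mCherry and against CD45, CD11b and the macrophage antigen encoded by Adgre1.

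Of the epithelial markers, Krt8 lay at log2 levels of 11.83 to 12.09 with degarelix, against 11.25 to 11.90 untreated, and Cldn4 at 9.99 to 10.09 against 9.12 to 10.46. Epcam, Cdh1, Krt18 and Cldn7 stayed on every array below the brightest background probe set, which read 6.93, so the epithelial label rests on part of its markers. Of 9 leukocyte markers measured, 0 were above that limit on all arrays. Their summed linear signal was 424 to 444 with degarelix against 422 to 1123 untreated, the highest sum being that of untreated replicate 1. Cd68 read 7.16, 6.90 and 6.99 with degarelix against 7.86, 7.05 and 7.51 untreated. Lyz2 read 5.51, 5.98 and 6.27 against 9.02, 6.26 and 7.65. Neither passed the test (limma adjusted p = 0.148 and 0.0914). The other leukocyte markers stayed on every array below that limit. Of 8 fibroblast markers 5 were above it on all arrays, with sums of 2308 to 3630 against 1965 to 2311, and Dcn and Fbln1 rose by 1.46 and 1.07 (limma adjusted p = 0.0147 and 0.00061). Of 7 endothelial markers 1 was above that probe set on all arrays, with sums of 574 to 597 against 638 to 807. Vwf fell by 0.71 (limma adjusted p = 0.0075). The part of these other cell types in the changes below was not tested.

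The question was how far the transcripts of the mitotic apparatus differed in tumor cells after androgen withdrawal, and whether its complexes moved to the same depth. All 44 genes were lower in degarelix-treated tumor cells. Each passed limma's test at an adjusted p under 0.05, against 7.51% of all genes called lower, and in each the 3 degarelix values lay below the 3 untreated values, which held for 16.4% of all genes. The median change was -1.47 on the log2 scale, a 2.76-fold lower level, beside a median of 0.04 over all genes tested. Changes ran from -3.00 for Mki67 to -0.33 for Cdc25b, and the central part of the 44, between the quartiles, lay between -1.80 and -1.11. Past the test and at least 2-fold lower were 34 of the 44, against 0.892% of all genes. At least 4-fold lower were 9, of which Hmmr fell least and ranked 29 by change among all genes. Of the 100 genes with the most negative change on the array 20 were among the 44, and of the 300 most negative 34 were. In a limma test against a 1.2-fold change 41 of the 44 passed as lower, against 1.69% of all genes, and the others were Bub3, Nek2 and Cdc25b. The count of all genes called lower, 2264, dropped to 966 when degarelix replicate 1 was left out and to 1113 for degarelix replicate 2, and likewise to 1350 for untreated replicate 2 and 1183 for untreated replicate 3, while 42 of the 44 were called in each of these fits.

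The separation between the groups exceeded the spread within them for the set as a whole. The mean log2 level over the 44 genes was 5.70, 6.02 and 5.73 in degarelix replicates 1, 2 and 3, against 7.11, 7.41 and 7.35 in untreated replicates 1, 2 and 3. Degarelix replicate 2 held the highest of the 3 degarelix values for 42 of the 44 genes, and untreated replicate 1 the lowest of the 3 untreated values for 37. Tumors of the same group thus differed in the level of most of these genes at once, by less than the groups differed. RNA from many cells was pooled on each array, so fewer dividing cells and less mitotic RNA per cell cannot be told apart.

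**Figure D1:**
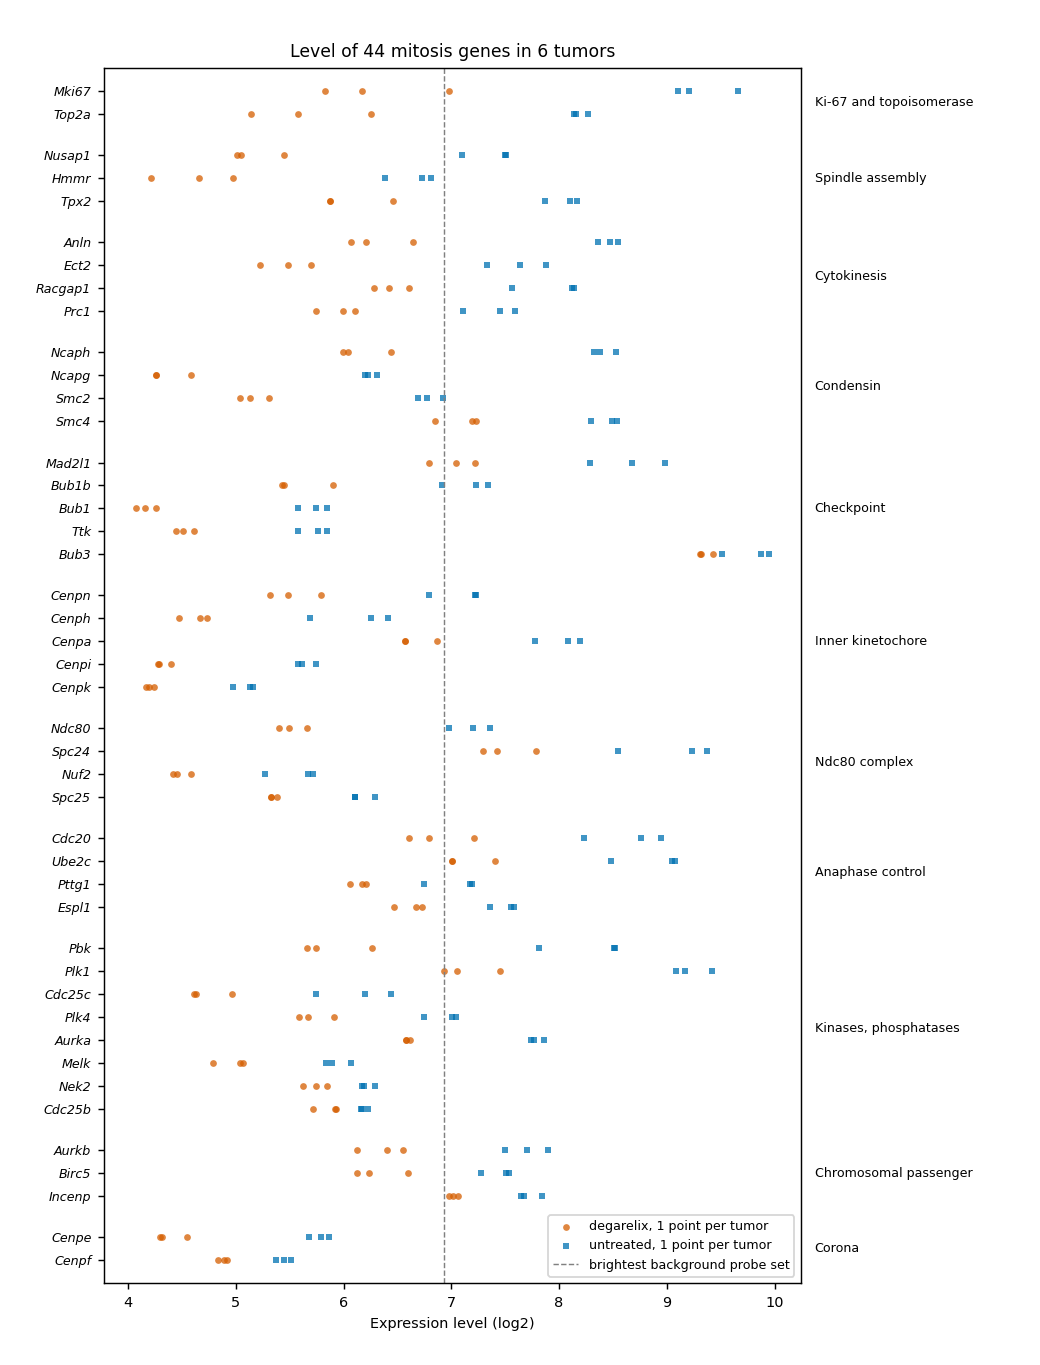
Log2 expression level of each of the 44 genes (rows, grouped by complex) in the 3 degarelix-treated tumors (orange circles) and the 3 untreated tumors (blue squares), with the brightest background probe set (6.93) as a dashed line. No row has overlapping groups, and the narrowest gap is that of Bub3.

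With degarelix most of the 44 genes read below the brightest background probe set, a mark that most genes on the array did not reach. The 23 background probe sets had signals from 2.14 to 6.93, and between 29.8% and 30.9% of all genes per array exceeded 6.93. The degarelix means of the 44 genes ran from 4.17 to 9.35, while the dimmest transcript cluster read 1.96. The mean lay below the brightest background probe set for 37 of the 44 genes with degarelix and for 16 of the 44 in untreated cells. The size of a fall that ends below that probe set is less certain. Array signal also depends on the probes of each gene, so signals are not compared here as expression between genes. Across the 44 genes the change went with the untreated signal, with a Pearson correlation of -0.44 and a Spearman correlation of -0.47 (n = 44 genes, which share the 6 arrays, and the untreated mean enters both axes, so no test was made).

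**Figure D2:**
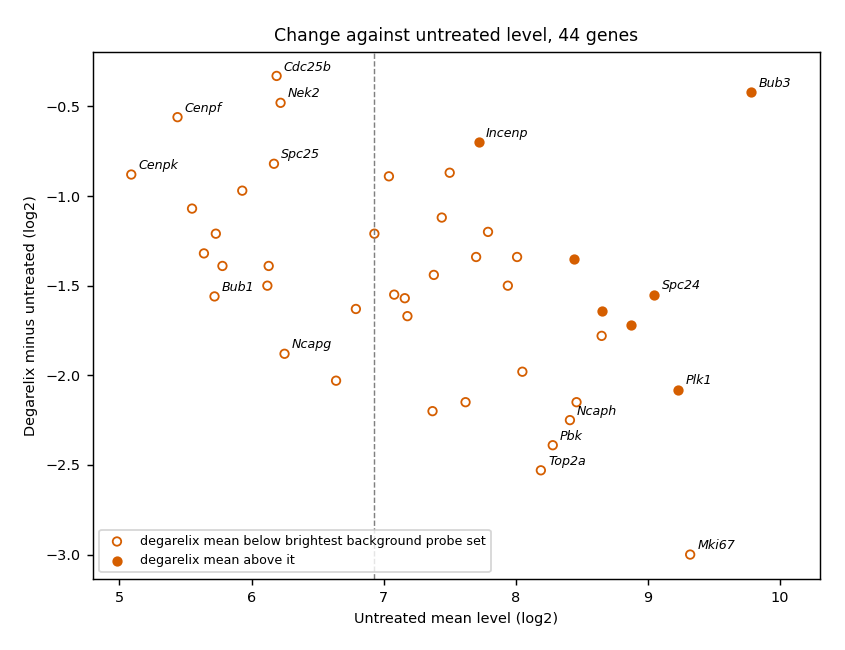
Degarelix minus untreated change (log2, vertical axis) against untreated mean level (log2, horizontal axis) for the 44 genes; open circles have a degarelix mean below the brightest background probe set, marked by the dashed line. Mki67 has the lowest change and Bub3 lies apart near the top right.

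Promoters are shown for the condensin genes Ncapg and Smc2, the checkpoint kinase gene Bub1 and Aurka, which had the smallest adjusted p among genes whose window holds both kinds of motif below, and for Cdc25b, which changed least, because the 44 genes moved together and many mitotic promoters are known to carry a cell cycle genes homology region with CCAAT boxes upstream. The windows are RefSeq promoters of build GRCm38.p6, from 250 bases before to 50 after the annotated start, written 5′ to 3′ in the direction of the gene. Capitals mark matches on either strand to TTTGAA or TTCGAA, which are forms of the homology region, and to CCAAT. Ncapg is at chr5:45669675-45669974 (+ strand), Smc2 at chr4:52438971-52439270 (+), Bub1 at chr2:127831810-127832109 (- strand), Aurka at chr2:172370521-172370820 (-) and Cdc25b at chr2:131186698-131186997 (+).
Ncapg: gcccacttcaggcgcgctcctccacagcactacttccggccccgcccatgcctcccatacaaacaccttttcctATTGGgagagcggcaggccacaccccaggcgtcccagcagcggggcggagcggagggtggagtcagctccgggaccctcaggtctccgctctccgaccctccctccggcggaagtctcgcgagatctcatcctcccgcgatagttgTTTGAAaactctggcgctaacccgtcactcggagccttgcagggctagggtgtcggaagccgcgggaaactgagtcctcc
Smc2: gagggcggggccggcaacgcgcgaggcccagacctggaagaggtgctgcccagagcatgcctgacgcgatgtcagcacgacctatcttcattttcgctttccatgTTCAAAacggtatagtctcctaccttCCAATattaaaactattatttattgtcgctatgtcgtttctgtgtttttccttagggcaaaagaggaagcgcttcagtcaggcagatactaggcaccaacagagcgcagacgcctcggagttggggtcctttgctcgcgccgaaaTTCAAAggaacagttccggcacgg
Bub1: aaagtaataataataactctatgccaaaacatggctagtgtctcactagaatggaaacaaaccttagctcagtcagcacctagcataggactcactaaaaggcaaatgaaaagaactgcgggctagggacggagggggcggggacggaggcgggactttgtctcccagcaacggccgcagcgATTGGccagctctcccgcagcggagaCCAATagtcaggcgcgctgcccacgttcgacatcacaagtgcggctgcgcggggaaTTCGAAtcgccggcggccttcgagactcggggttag
Aurka: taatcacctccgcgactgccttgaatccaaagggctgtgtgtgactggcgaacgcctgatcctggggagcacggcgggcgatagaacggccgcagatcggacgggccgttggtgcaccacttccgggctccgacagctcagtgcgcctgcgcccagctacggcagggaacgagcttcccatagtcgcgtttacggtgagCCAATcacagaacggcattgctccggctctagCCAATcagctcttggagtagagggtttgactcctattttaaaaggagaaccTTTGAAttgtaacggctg
Cdc25b: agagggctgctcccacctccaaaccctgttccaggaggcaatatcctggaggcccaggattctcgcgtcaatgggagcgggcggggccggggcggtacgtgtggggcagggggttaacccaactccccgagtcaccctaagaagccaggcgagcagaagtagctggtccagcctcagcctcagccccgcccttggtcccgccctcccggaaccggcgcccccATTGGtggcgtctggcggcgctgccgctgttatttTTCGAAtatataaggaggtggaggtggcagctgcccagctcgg
The first 4 were thus chosen for their matches, and of the genes with adjusted p as small Ncaph held none of the motifs and Cenpi held CCAAT only. In Ncapg the TTTGAA match begins 30 bases before the start and the CCAAT match 176 bases before it. Smc2 has TTTGAA matches from base 145 before and base 27 after the start, with CCAAT 119 bases before it. Bub1 has CCAAT matches 68 and 42 bases before the start and TTCGAA at base 15 after it, and Aurka has CCAAT matches 51 and 19 bases before the start and TTTGAA at base 33 after it. Cdc25b has the same 2 kinds of match, CCAAT 28 bases before and TTCGAA 8 bases after the start, beside its change of -0.33. Promoter windows were found for 37 of the 44 genes. Of these, 24 (64.9%) held TTTGAA or TTCGAA, against 21.7% of 27025 genes with a window of the same length. CCAAT was held by 27 (73.0%), against 41.1% of all genes, and both kinds by 22 (59.5%), against 8.61%. Matches to 2 different motifs shared bases in 48 of 32851 windows, and a gene with several windows was counted once if any held the match. These are letter matches and no test of the difference was made. The genes without any match in the window were Ncaph, Nusap1, Mad2l1, Plk4, Birc5, Nuf2, Melk and Pttg1. They changed by -2.25, -2.20, -1.64, -1.21, -1.12, -1.07, -0.97 and -0.89, in that order.

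Among the markers of dividing chromosomes the falls were the deepest of the 11 functional groups. Mki67 encodes Ki-67, which coats mitotic chromosomes and keeps them apart. Its log2 levels were 5.83, 6.98 and 6.17 with degarelix, against 9.66, 9.21 and 9.10 untreated, a 7.98-fold lower level (change -3.00, SE 0.27, limma adjusted p = 0.000357). Top2a encodes the topoisomerase that untangles sister chromatids and read 5.14, 6.25 and 5.58 against 8.14, 8.27 and 8.16 (change -2.53, SE 0.23, limma adjusted p = 0.000395). In both genes degarelix replicate 2 stood above the other treated tumors, and it was still below every untreated tumor by 2.12 for Mki67 and 1.89 for Top2a. The 2 genes also had the widest spread among treated tumors, with SDs of 0.59 and 0.56 (n = 3).

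Spindle assembly genes came next, with a median of -2.03 over 3 genes and little spread between them. Nusap1, whose product bundles microtubules around chromosomes, read 5.05, 5.45 and 5.01 with degarelix, against 7.10, 7.51 and 7.50 untreated, a 4.59-fold lower level (limma adjusted p = 9.44e-05). Tpx2, the activator of Aurora A on the spindle, averaged 6.06 ± 0.34 against 8.05 ± 0.16, and Hmmr, a microtubule-associated spindle protein, 4.61 ± 0.38 against 6.64 ± 0.23 (log2, SD, n = 3 each). Their changes of -1.98 and -2.03 differed by less than their standard errors of 0.16 and 0.19.

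All 4 cytokinesis genes fell, with a median of -1.83. Anln, the scaffold of the contractile ring, read 6.07, 6.64 and 6.21 with degarelix, against 8.36, 8.47 and 8.55 untreated (change -2.15, SE 0.14, limma adjusted p = 8.68e-05). Ect2 encodes the exchange factor that switches on RhoA at the cell equator, and it read 5.22, 5.70 and 5.48 against 7.33, 7.88 and 7.64 (change -2.15, SE 0.16, limma adjusted p = 0.000135). Racgap1, the centralspindlin subunit that recruits Ect2, changed by -1.50 (SE 0.16), and Prc1, which crosslinks microtubules of the spindle midzone, by -1.44 (SE 0.14). All 4 genes stood above the background limit in untreated tumors, at means of 7.38 to 8.46, and all fell below it with degarelix.

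Condensin genes fell with a median of -1.76 over the 4 subunits. Ncaph, the kleisin that closes the condensin I ring, read 5.99, 6.44 and 6.04 with degarelix, against 8.38, 8.32 and 8.53 untreated, a 4.76-fold lower level (limma adjusted p = 5.45e-05). Ncapg, a repeat subunit of the same complex whose promoter is printed above, read 4.26, 4.58 and 4.26 against 6.20, 6.23 and 6.31 and had the smallest adjusted p of the 44 (change -1.88, SE 0.10, limma adjusted p = 4.29e-05). The ATPase core that condensin I shares with condensin II had changes nearer to 0, with Smc2 at -1.63 (SE 0.09) and Smc4 at -1.35 (SE 0.11). This difference between subunits was not tested, and the means of Ncapg and Smc2 lay below the background limit in both groups. Smc4 averaged 7.09 ± 0.21 with degarelix and 8.44 ± 0.13 untreated (SD, n = 3 each), so both means lay above the background limit, although degarelix replicate 1 read 6.85, below it.

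The checkpoint genes Mad2l1, Bub1b and Bub1 fell to similar depths, while the falls of Ttk and Bub3 were smaller. Mad2l1, which encodes the inhibitor that unattached kinetochores load onto Cdc20, read 6.79, 7.22 and 7.04 with degarelix, against 8.29, 8.98 and 8.68 untreated (change -1.64, SE 0.17, limma adjusted p = 0.000731). The kinase gene Bub1 read 4.07, 4.26 and 4.16 against 5.58, 5.74 and 5.85 (change -1.56, SE 0.09), and Bub1b, which encodes the Cdc20 inhibitor BubR1, changed by -1.57 (SE 0.15). Ttk, the kinase that starts checkpoint signalling, changed by -1.21 (SE 0.09). The means of Bub1 and Ttk lay below the background limit in both groups. Bub3 encodes the adaptor that carries Bub1 and BubR1 to kinetochores. Well above the background limit, it read 9.31, 9.32 and 9.43 with degarelix, against 9.51, 9.87 and 9.95 untreated. Its change of -0.42 (SE 0.11, limma adjusted p = 0.0453) left a gap of 0.09 between the groups. The call was lost with median centring (adjusted p = 0.0764) and on leaving out any of the 6 tumors but untreated replicate 1 (adjusted p = 0.0644 to 0.153).

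In the inner kinetochore the median change was -1.34 over 5 genes, all of which fell. Cenpa, the histone variant that marks centromeres, read 6.57, 6.87 and 6.57 with degarelix, against 7.78, 8.19 and 8.08 untreated (change -1.34, SE 0.12, limma adjusted p = 0.00043). Cenpn, whose product binds nucleosomes that hold this variant, changed by -1.55 (SE 0.15). Cenph, Cenpi and Cenpk encode partners in a shared subcomplex and changed by -1.50 (SE 0.17), -1.32 (SE 0.08) and -0.88 (SE 0.08). Cenpk averaged 4.20 ± 0.04 with degarelix and 5.09 ± 0.10 untreated (SD, n = 3 each), and all 5 treated means lay below the background limit.

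The Ndc80 complex, the rod that grips microtubules, had a median of -1.31 over its 4 subunits. Ndc80 read 5.49, 5.66 and 5.40 with degarelix, against 6.98, 7.36 and 7.20 untreated (change -1.67, SE 0.11, limma adjusted p = 9.41e-05), and its coiled-coil partner Nuf2 changed by -1.07 (SE 0.12). At the inner end of the rod Spc24 read 7.42, 7.79 and 7.29 against 8.55, 9.37 and 9.23 (change -1.55, SE 0.21), while its partner Spc25 changed by -0.82 (SE 0.07), averaging 5.35 ± 0.03 with degarelix and 6.17 ± 0.10 untreated (SD, n = 3 each). The changes of partner subunits were not tested against each other, and the mean of Spc24 lay above the background limit in both groups while those of Nuf2 and Spc25 lay below it. In the outer corona Cenpe, a motor that moves chromosomes along microtubules, changed by -1.39 (SE 0.09) and Cenpf, a coiled-coil protein, by -0.56 (SE 0.07). Cenpf read 4.89, 4.92 and 4.83 with degarelix, against 5.51, 5.45 and 5.37 untreated, without overlap but within the background range on every array.

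The chromosomal passenger genes, which encode the complex that corrects wrong attachments, had a median of -1.12. The kinase gene Aurkb read 6.40, 6.55 and 6.12 with degarelix, against 7.50, 7.90 and 7.70 untreated (change -1.34, SE 0.13, limma adjusted p = 0.000557). Birc5, which encodes survivin, changed by -1.12 (SE 0.13). Incenp, the scaffold of the complex, read 7.06, 7.02 and 6.98 against 7.67, 7.84 and 7.65 and changed by -0.70 (SE 0.08, limma adjusted p = 0.000857), with all 6 values above the background limit.

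All 4 genes of anaphase control fell, with a median of -1.31. Cdc20, the activator of the anaphase-promoting complex and the target of the checkpoint, read 6.61, 7.21 and 6.79 with degarelix, against 8.23, 8.95 and 8.76 untreated (change -1.78, SE 0.20, limma adjusted p = 0.00106). Ube2c, the ubiquitin-conjugating enzyme of the same complex, changed by -1.72 (SE 0.17). The protease separase and its inhibitor securin, encoded by Espl1 and Pttg1, changed by -0.87 (SE 0.09) and -0.89 (SE 0.12), each by less than 2-fold.

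The mitotic kinase and phosphatase genes were the most uneven group, with changes from -2.39 to -0.33 and a median of -1.20 over 8 genes. Pbk, a mitotic kinase, read 5.74, 6.26 and 5.66 with degarelix, against 7.81, 8.52 and 8.51 untreated (change -2.39, SE 0.22, limma adjusted p = 0.000377). Plk1, which acts at centrosomes and kinetochores throughout mitosis, read 7.05, 7.45 and 6.93 against 9.09, 9.42 and 9.17, a 4.24-fold lower level with both means above the background limit (limma adjusted p = 0.000101). Cdc25c, a phosphatase that activates Cdk1, changed by -1.39 (SE 0.17), Plk4, the kinase of centriole duplication, by -1.21 (SE 0.11) and Melk by -0.97 (SE 0.10). Aurka, the kinase of spindle poles, had the tightest treated values of the 44, at 6.58, 6.62 and 6.58 against 7.74, 7.86 and 7.77 untreated (change -1.20, SE 0.07, limma adjusted p = 5.68e-05). Nek2, which parts the centrosomes, changed by -0.48 (SE 0.08, limma adjusted p = 0.00683). Cdc25b, another activator of Cdk1, read 5.92, 5.93 and 5.72 with degarelix, against 6.23, 6.17 and 6.16 untreated. Its change of -0.33 (SE 0.08, limma adjusted p = 0.031) lost its call on leaving out any tumor but degarelix replicate 3 (adjusted p = 0.0518 to 0.0844), and both group means lay within the background range.

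**Figure D3:**
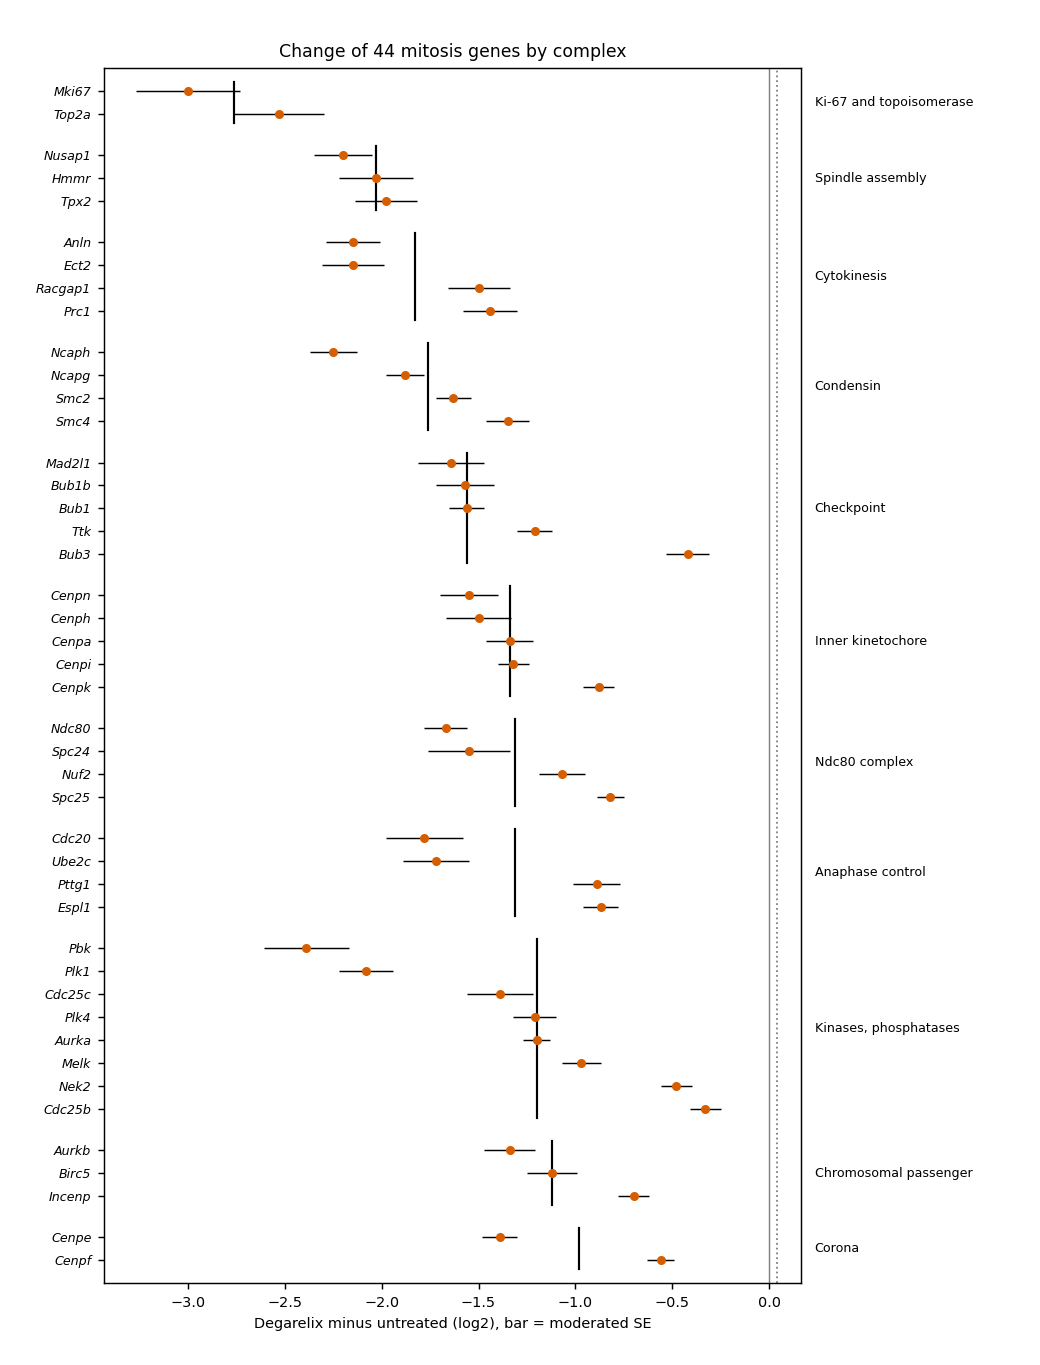
Degarelix minus untreated change (log2) of each of the 44 genes with its moderated SE, grouped by complex and ordered by the group median (black line); the solid grey line marks 0 and the dotted line the median of all genes tested (0.04). Group medians run from -2.76 for Mki67 and Top2a to -0.98 for the corona genes, and the spread within the kinase, checkpoint and anaphase groups is as large as many differences between groups.

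The order of the group medians ran from -2.76 for Mki67 and Top2a through spindle assembly, cytokinesis, condensin, checkpoint, inner kinetochore, Ndc80, anaphase, kinase and passenger genes to -0.98 for the corona genes. No test was made of the differences between groups, which hold between 2 and 8 genes each. From spindle assembly to the corona, the ranges of member changes of neighbouring groups overlapped. The untreated median signal was 8.76 for Mki67 and Top2a and 5.61 for the corona genes, and the part of signal in the order was not tested. With dim genes removed no corona gene was left. The Ndc80 median was then -1.55, below that of the inner kinetochore at -1.45, and the condensin median was -1.63.

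Related proteins with divided roles allowed a comparison within arrays. For 7 such pairs, picked with their values known, the change of the first gene minus that of the second was tested by a two-sided exact permutation test over the 6 arrays, whose smallest p in this design is 0.1. Bub1 and Bub1b differed by 0.01 (SE 0.14, exact p = 0.9) and Aurka and Aurkb by 0.14 (SE 0.14, exact p = 0.4), with overlapping groups. For Plk1 against Plk4 the difference was -0.87 (SE 0.11), for Cdc25c against Cdc25b -1.06 (SE 0.25) and for Ncapg against its condensin II counterpart Ncapg2 -0.52 (SE 0.06). For Ncaph against its condensin II counterpart Ncaph2 it was -2.0 (SE 0.19), and Ncaph2 averaged 8.19 ± 0.06 with degarelix and 8.45 ± 0.11 untreated (SD, n = 3 each) and did not pass the test (change -0.26, limma adjusted p = 0.0734). For Cdc20 against Fzr1, the other activator of the anaphase-promoting complex, it was -1.87 (SE 0.26), and the change of Fzr1 itself was 0.10 (limma adjusted p = 0.422). The within-array values of these 5 pairs did not overlap between the groups, at exact p = 0.1 each and 0.14 after adjustment over the 7 pairs, so none could pass a threshold of 0.05. The means of Bub1, Cdc25c, Cdc25b, Ncapg and Ncapg2 lay below the brightest background probe set in both groups. With degarelix so did those of Bub1b, Aurka, Aurkb, Plk4, Ncaph and Cdc20, and the size of these differences is less certain.

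**Figure D4:**
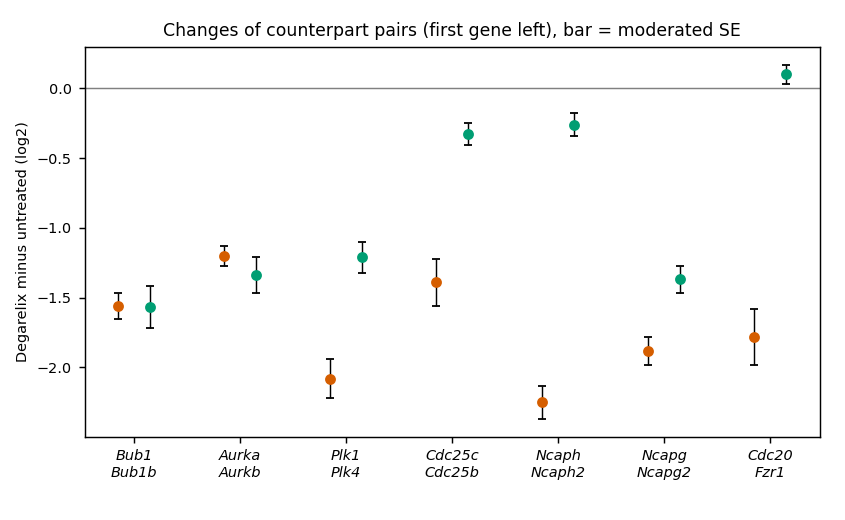
Degarelix minus untreated change (log2, with moderated SE) of the genes of 7 counterpart pairs, the first-named gene at left in orange and the second at right in green. The Bub1 and Aurora pairs lie together, whereas Ncaph2 and Fzr1 lie near 0 while Ncaph and Cdc20 lie at -2.25 and -1.78.

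Other genes of mitosis, listed by complex from background knowledge, were lower in part. Of 78 listed 73 were measured, of which 40 fell, 0 rose and 33 did not pass the test in limma, against 7.51% of all genes called lower and 4.19% called higher, with a median change of -0.38. Other condensin subunits fell in 3 of 4 cases (median -1.29), with Ncapg2 at -1.37, Ncapd3 at -1.27 and Ncapd2 at -1.31. Other outer kinetochore genes fell in 10 of 15 cases (median -1.03). Knl1, the platform on which Bub1 and Bub3 assemble, changed by -1.53 (SE 0.10, limma adjusted p = 8.32e-05), and the Mis12 complex gene Dsn1 by -0.72. Kntc1 and Zwilch, which form a complex that brings dynein to kinetochores, changed by -1.34 and -1.49. Zw10 of the same complex had a change of -0.35 that missed the threshold (limma adjusted p = 0.141). Also not past the test were the checkpoint gene Mad1l1 at -0.20, Mad2l1bp at -0.16, Mis12 at -0.29 and Zwint at -0.11 (limma adjusted p = 0.171 to 0.512). All 4 passenger and shugoshin genes fell (median -0.94), namely the cohesin protectors Sgo1 at -1.33 and Sgo2a at -0.76, the histone kinase gene Haspin at -1.08 and the passenger subunit gene Cdca8 at -0.80. Of 10 other inner kinetochore and loading genes 7 fell (median -0.93), among them Cenpp at -1.27 and Cenpm at -1.08. Mis18a and Oip5, which help to load Cenpa, changed by -1.15 and -1.11. Cenpc1, Cenpl and Cenpt did not pass the test, at -0.21, -0.28 and -0.28.

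The lists of cohesin, of gamma-tubulin and augmin and of the anaphase-promoting complex had medians nearer to 0, a difference that was not tested. Of 12 cohesin genes 6 fell (median -0.41), led by Esco2, the S-phase acetyltransferase of cohesin, at -1.23 and by Cdca5, which encodes sororin, at -0.76, while the ring subunits Rad21 and Smc3 changed by -0.68 and -0.44. Of 12 gamma-tubulin and augmin genes 7 fell (median -0.36), with Haus6 at -1.26, Haus1 at -1.0, Haus4 at -0.90 and Tubg1 at -0.58. Of 16 genes for the anaphase-promoting complex and its partners 3 fell (median -0.18), Ube2s at -0.67, Anapc1 at -0.46 and Anapc15 at -0.41, beside Cdc20 and Ube2c at -1.78 and -1.72. The untreated median signals of these lists were 7.27, 7.70 and 8.19, beside 7.38 for the 44 genes. Without degarelix replicate 1 the count of other mitosis genes called was 29, and without untreated replicate 1 it was 53.

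**Figure D5:**
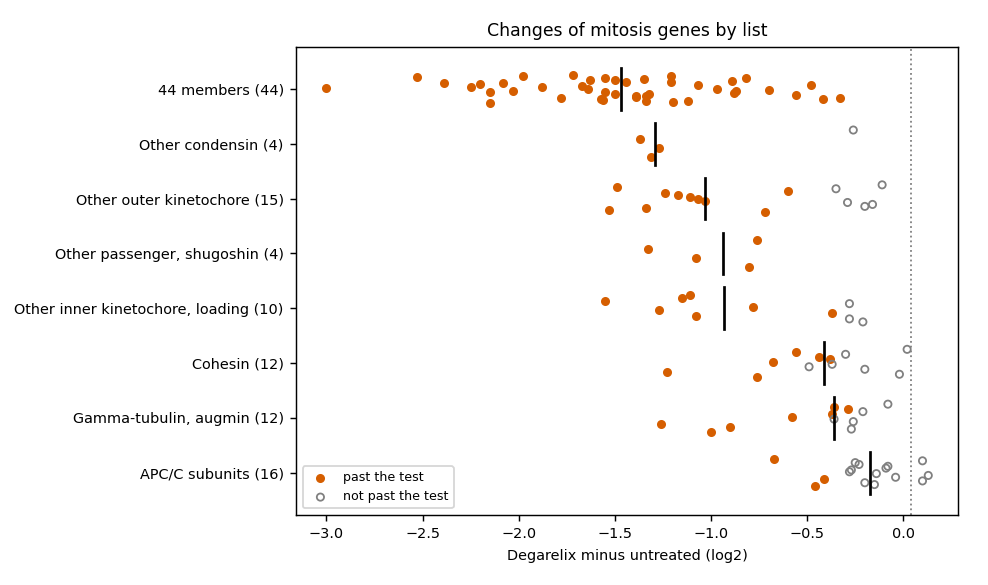
Degarelix minus untreated change (log2) of the 44 genes and of 7 lists of other mitosis genes, 1 point per gene, filled where limma's adjusted p was under 0.05; black lines are list medians and the dotted line the median of all genes. The 44 genes centre on -1.47 and the anaphase-promoting complex subunits on -0.18.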

How the data were processed

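Biotin-labelled RNA of 6 tumors was read on 6 arrays. The deposited values are log2 expression values made by the authors with Affymetrix Expression Console and RMA, per the submitters' processing notes; the sources used here state neither version nor settings. RMA brings arrays to a common distribution and compresses changes of dim genes. Of 72688 rows, 6732 control or background probe sets were left out, and 30604 of 65956 transcript clusters carried 1 gene symbol in the platform annotation (2146 several, 33206 none). Symbols were updated through Entrez identifiers (827 changed, RefSeq GRCm38.p6), and the brightest cluster of each of 30142 genes was tested, with no filter on dim genes.

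Changes are degarelix minus untreated, fitted over all genes in limma 3.58.1 (R 4.3.3, lmFit and eBayes, two-sided) with Benjamini-Hochberg adjustment and a threshold of 0.05; SE is the moderated error. In data simulated for this comparison with 30142 genes, limma recovered 92 of 100 shifts of 1 (log2) and 40 of 100 shifts of 0.5. It made 8 calls among 29942 unchanged genes. The simulation drew independent normal noise for each gene, with SDs shuffled across genes, so no deviation was shared by the genes of an array. It therefore does not give the rate of false calls on the real arrays. The 44 genes, their complexes and the other lists were chosen with earlier results of these data known, so no list was tested as a set. Named from each other list were up to 4 genes by adjusted p. Ncaph2, Fzr1 and the kinetochore genes that did not pass the test were added with their values known. The labels call the samples biological replicates, and 3 arrays per group limit the precision. Near-identical genes may share probe signal, which was not tested. Alternatives were median centring, cyclic loess and quantile scaling, robust variances with an intensity trend, gene-by-gene array weights, averaging clusters per gene, removing dim genes, a replicate block, leaving out each tumor and a 1.2-fold test. Other software was Python 3.11.15 with pandas 2.3.3 and matplotlib 3.10.9.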

Additional observations from a re-analysis of the deposited data

How the results depend on the processing

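Of 648 changes of the 44 genes recomputed under 15 alternatives, 634 kept direction and call, 14 lost the call (those of Bub3, Cdc25b and, against a 1.2-fold change, Nek2) and 0 reversed. The number of the 44 called lower was 41 to 44 where all were tested, and 32 of 32 under the filter on dim genes, which removed the others. Their median change was -1.61 to -1.37 on leaving out each tumor. The count of all genes called, 3526, was 9912 with array weights, 749 against a 1.2-fold change and 1590 to 4700 on leaving out each tumor. Of the calls 35.8% were higher, 26.3% with median centring, 44.9% with quantile normalization and 51.0% with array weights. The count of other mitosis genes called, 40, was 25 against a 1.2-fold change and 29 to 53 on leaving out each tumor; cyclic loess and quantile normalization each called 1 of them higher. The cause of these shifts was not tested. Same-numbered tumors deviated together with correlations of 0.16, 0.04 and 0.20, each the best match of its number, too weak to take the numbers as pairs; with the replicate block 3806 genes, 44 of the 44 and 43 other mitosis genes were called, with the median change at -1.47. Treated levels that reach the background signals, at up to 6.93, limit the size of most falls described.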
